A study of Beta vulgaris with 9 samples.

Results

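Superoxide dismutases are the enzymes that turn the superoxide radical into hydrogen peroxide and oxygen. The copper-zinc gene LOC104902979 and the iron gene LOC104892465 were the members described here, 2 of 24351 protein-coding gene identifiers measured in sugar beet leaves. They were chosen by their gene identifiers and their product names in the deposited annotation, superoxide dismutase [Cu-Zn] and superoxide dismutase [Fe]. The choice was made with earlier results of these data known, and the ranks and p-values of the members below carry that limit. The annotation named 3 other superoxide dismutase genes and 1 copper chaperone for superoxide dismutase, and these 4 genes served as the comparison. RNA was taken from fresh leaves of seedlings of the cultivar KWS0143, grown in Hoagland nutrient solution, and each group held 3 libraries described as biological replicates. Control (C) leaves came from plants at day 0, without alkali. Short-term (ST) leaves came from plants treated for 3 days with a 75 mM alkaline mixture of sodium carbonate and sodium bicarbonate. Long-term (LT) leaves came from plants treated with it for 7 days. No untreated plants were sampled at day 3 or 7, so the effect of alkali cannot be told apart from that of older leaves or of the harvest day. The labels do not say whether a library pooled several plants.

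Plants hold 3 classes of superoxide dismutase, named after the metal in the active site. Copper-zinc enzymes work in the cytosol, the plastid stroma and peroxisomes, iron enzymes mainly in plastids, and manganese enzymes in mitochondria. In Arabidopsis, the plastid copper-zinc and iron enzymes are exchanged for each other with copper supply: when copper is scarce, the factor SPL7 lowers the copper-zinc transcripts through a microRNA and raises an iron superoxide dismutase. A copper chaperone loads copper into the copper-zinc enzymes. Hydrogen peroxide made by all of them is removed by ascorbate peroxidases, peroxiredoxins and catalases.

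The deposited values are FPKM, read fragments relative to the length of the transcript and to the mapped total of its library, so levels can be compared between genes of different length. Each member was listed with a single transcript. The copper-zinc transcript XM_010690943.2 had 8 exons and 1105 bases and lay on the plus strand of sequence NC_025820.2, from 8641986 to 8648598. The iron transcript XM_010678412.1 had 9 exons and 1324 bases and lay on the minus strand of NC_025816.2, from 6227846 to 6234813. For these positions, the genome build was not given in the sources used here. Product names stop at the first comma in the files, and the compartment of each enzyme was not given.

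Sums of FPKM lay between 915463 and 1119080 per library. Read counts were not analysed here. From the smallest step between values of single-exon lncRNAs, taken as the worth of 1 aligned base, the libraries held an estimated 5.01 to 6.58 gigabases of aligned sequence. At these depths the mean coverage of the copper-zinc transcript was 30.7 to 1690 and that of the iron transcript 127 to 835, so both were well covered in every library. Along the first principal component of all tested genes, control replicate 1 lay at -1.07, among the ST libraries (-3.22 to 20.3), while the other control libraries lay at 55.8 and 71.9. Leaf identity was checked with 26 genes for chlorophyll-binding proteins, photosystem I subunits, the Rubisco small subunit and oxygen-evolving proteins. None of them was at 0 in any library, and their summed FPKM ranged from 56049 to 71835 in control, 37588 to 50814 in ST and 28819 to 44747 in LT leaves. Markers of root endodermis, which a leaf should lack, had no match among the product names.

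The copper-zinc gene LOC104902979 fell steeply. Its FPKM was 114, 208 and 257 in control replicates 1, 2 and 3, 51.7, 26.3 and 25.6 in the ST libraries and 19.8, 13.6 and 5.01 in the LT libraries. The groups did not overlap at any step, the lowest control library lying above the highest ST library and the lowest ST library above the highest LT library. Of all tested genes, 9.9% had every ST library below every control library (20.8% above), 9.85% every LT library below control (38% above), and 6.57% every LT library below every ST library (27.3% above). The means of the copper-zinc gene were 193 ± 72.5, 34.5 ± 14.9 and 12.8 ± 7.42 (SD, n = 3), 5.59-fold lower at day 3 and 15.1-fold lower at day 7 than in control leaves.

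Changes were tested with limma on log2(FPKM + 1) over all 14491 genes with a group mean over 0.5 FPKM, with p-values adjusted over all of these genes. In LT leaves the copper-zinc gene had fallen by 3.91 on the log2 scale (SE 0.49, 95% confidence interval -5.03 to -2.79, limma adjusted p = 0.00367). This was the 6th lowest change of all tested genes, and the background in this comparison was 7.23% of genes called as lower and 31.1% called as higher. In ST leaves the log2 change was -2.45 (SE 0.49, interval -3.57 to -1.33), the 5th lowest of all tested genes. Its limma adjusted p of 0.068 missed the threshold of 0.05 in a comparison where 0.0276% of genes were called as lower and 0.0759% as higher. Without control replicate 1 the adjusted p was 0.0369, and without LT replicate 3 it was 0.0411, within a range of 0.0369 to 0.257 over the libraries left out 1 at a time. From day 3 to day 7 the log2 change was -1.46 (SE 0.49, limma adjusted p = 0.12), in a comparison where 0 genes passed in either direction and 4013 had an unadjusted p under 0.05. All 3 comparisons share libraries, so they are not independent of each other. With bulk leaf RNA, fewer cells that make a transcript and less of it per cell cannot be told apart.

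The iron gene LOC104892465 did not pass the test at day 3 and fell by day 7. Its FPKM was 118, 97.6 and 98.4 in control replicates 1, 2 and 3, 97.2, 150 and 116 in the ST libraries and 33.7, 21.9 and 46.8 in the LT libraries. The control and ST libraries overlapped, and every LT library lay below all 6 others. Of all tested genes, 9.85% had every LT library below control and 6.57% every LT library below ST. Genes with both were not counted. The means were 105 ± 11.6, 121 ± 26.9 and 34.1 ± 12.5 (SD, n = 3). In ST leaves the log2 change was 0.19 (SE 0.26), and its interval of -0.41 to 0.79 leaves room for a modest change in either direction (limma adjusted p = 0.692). In LT leaves the iron gene had fallen by 1.65 on the log2 scale (SE 0.26, interval -2.25 to -1.05, limma adjusted p = 0.00553), the 41st lowest change and 3.07-fold below control.

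Against ST leaves the iron gene was 3.56-fold lower in LT leaves, a log2 change of -1.84 (SE 0.26, interval -2.44 to -1.24). The limma adjusted p of 0.0548 lay just outside the threshold, and the change was the 11th lowest of all tested genes. Without control replicate 1, LT replicate 1 or LT replicate 3 the adjusted p was 0.0326, 0.0275 and 0.0139, with log2 changes of -1.84, -1.87 and -2.10. Over all libraries left out 1 at a time it ranged from 0.0139 to 0.182, the highest without LT replicate 2 (log2 change -1.56).

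**Figure D1:**
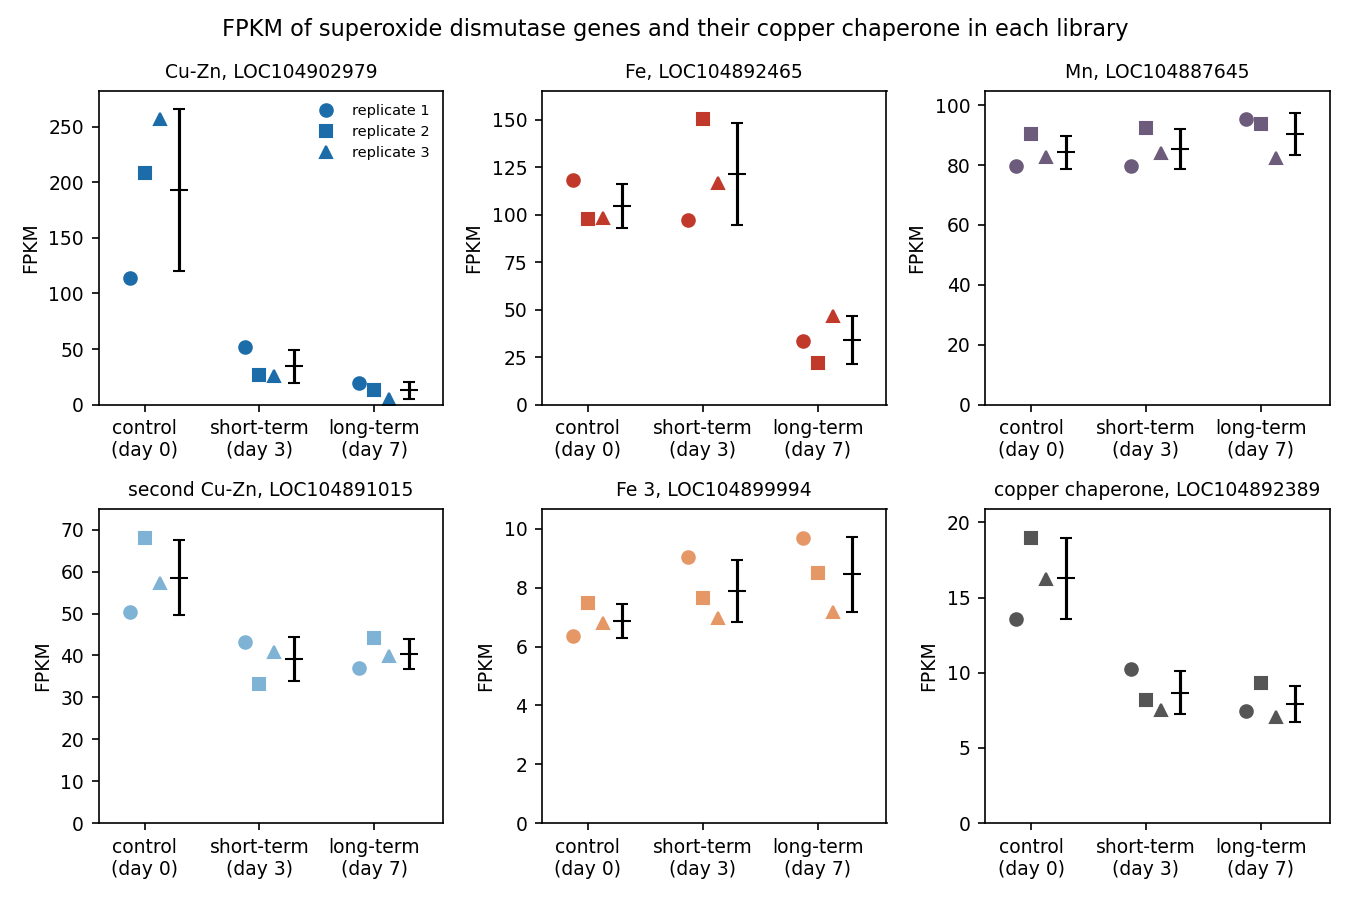
FPKM (vertical axes, from 0) of the 5 superoxide dismutase genes and their copper chaperone in control, short-term and long-term leaves, with 1 symbol per replicate and the mean with its SD beside them in black (n = 3). The copper-zinc gene LOC104902979 is at 193, 34.5 and then 12.8 FPKM, while the iron gene LOC104892465 is at 105, 121 and then 34.1 FPKM.

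The ratio of the iron to the copper-zinc member was higher in alkaline than in control leaves. In LT leaves the iron member had itself fallen, from a mean of 105 to 34.1 FPKM, and the copper-zinc member had fallen further. The ratio of iron to copper-zinc FPKM was 1.03, 0.470 and 0.383 in control replicates 1, 2 and 3, so the copper-zinc transcript was the more abundant in 2 of 3 control libraries. The ratio was 1.88, 5.72 and 4.56 in the ST libraries and 1.70, 1.61 and 9.34 in the LT libraries. Every alkaline library lay above every control library, and the ST and LT libraries overlapped. The ratio is given with no test, since it is a score over chosen members. The share of other gene pairs with such a separation was not counted.

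Within groups, the members often deviated in opposite directions. Control replicate 1 had the lowest copper-zinc and the highest iron FPKM of its group, and so had LT replicate 3. ST replicate 1 had the highest copper-zinc and the lowest iron value of its group. Over the 9 libraries, the deviations from the group means on the log2 scale had a Pearson r of -0.69. This was not particular to the pair. The deviations of the iron member had an r of -0.74 with the copper chaperone and -0.65 with the second copper-zinc gene, LOC104891015. With the iron gene LOC104899994 and the manganese gene the r was -0.53 and -0.20. These values are given as a description with no test, since deviations within a group are not independent of each other.

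**Figure D2:**
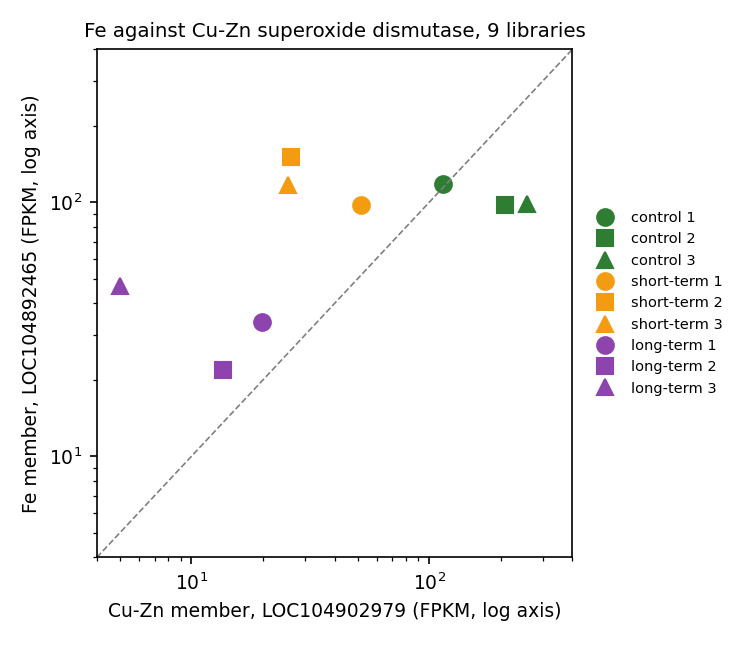
FPKM of the iron gene LOC104892465 (vertical, log axis) against that of the copper-zinc gene LOC104902979 (horizontal, log axis) in the 9 libraries, with colours for groups, symbols for replicates and a dashed line of equal FPKM. Control libraries lie at ratios of 0.383 to 1.03 and all 6 alkaline libraries lie above the line, at ratios of 1.61 to 9.34.

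The second copper-zinc gene, LOC104891015, lay on NC_025815.2 from 15146321 to 15150849. It behaved differently in size: its FPKM was 50.3, 68.1 and 57.3 in control replicates 1, 2 and 3, 43.3, 33.2 and 40.8 in the ST libraries and 37.1, 44.1 and 39.8 in the LT libraries. All 6 alkaline libraries lay below the control libraries, and ST and LT overlapped. Of all tested genes, 9.9% had every ST library and 9.85% every LT library below control. Genes with both were not counted. The log2 change was -0.57 in ST leaves (SE 0.15, limma adjusted p = 0.091) and -0.52 in LT leaves (SE 0.15, interval -0.86 to -0.19, limma adjusted p = 0.0263). This call was lost without any one of control replicate 2 or 3 and LT replicate 1, 2 or 3, with adjusted p of 0.0858, 0.0718, 0.0601, 0.0512 and 0.0549, and also when every library was scaled to the same total FPKM (0.103). It was lost as well in the fit of 2 groups, with a replicate block and in the unmoderated F-test. The intervals of the copper-zinc genes at day 7 did not meet, but the difference between their changes was not tested.

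The manganese gene LOC104887645, of the mitochondrial class, passed in no comparison. Its FPKM was 79.5, 90.3 and 82.8 in control, 79.5, 92.4 and 83.9 in ST and 95.3, 93.7 and 82.4 in LT replicates 1, 2 and 3. All groups overlapped. The log2 change was 0.02 at day 3 (interval -0.23 to 0.26) and 0.10 at day 7 (interval -0.14 to 0.34, limma adjusted p = 0.467), and the sign at day 7 turned under median-ratio scaling. The remaining iron gene, LOC104899994 (superoxide dismutase [Fe] 3), had the lowest level of the family, with 6.87 ± 0.568, 7.90 ± 1.06 and 8.45 ± 1.27 FPKM (SD, n = 3). The groups overlapped, and its log2 change at day 7 was 0.26 (interval -0.05 to 0.57, limma adjusted p = 0.158), against -0.01 with median-ratio scaling and 0.41 with the same total FPKM, where it passed (0.0411).

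LOC104899994 was the only superoxide dismutase gene with several transcripts above the filter. XM_010687304.2 held 76.0 to 88.2% of its FPKM in each library and XM_010687302.2 held 4.05 to 16.0%. In the fit over 18511 transcripts neither passed in any comparison, with limma adjusted p of 0.185 for XM_010687304.2 and 0.544 for XM_010687302.2 at day 7. The second copper-zinc gene had nearly all of its FPKM, at least 99.8%, in XM_010676650.1. For both members, with 1 transcript each, transcript and gene values were the same, and the transcript fit gave limma adjusted p of 0.00586 for XM_010690943.2 and 0.00821 for XM_010678412.1 at day 7. In that fit 4.82% of transcripts were called as lower and 18.6% as higher at day 7, 0.0324% and 0.0702% at day 3, and 0% and 0.0054% between ST and LT leaves.

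**Figure D3:**
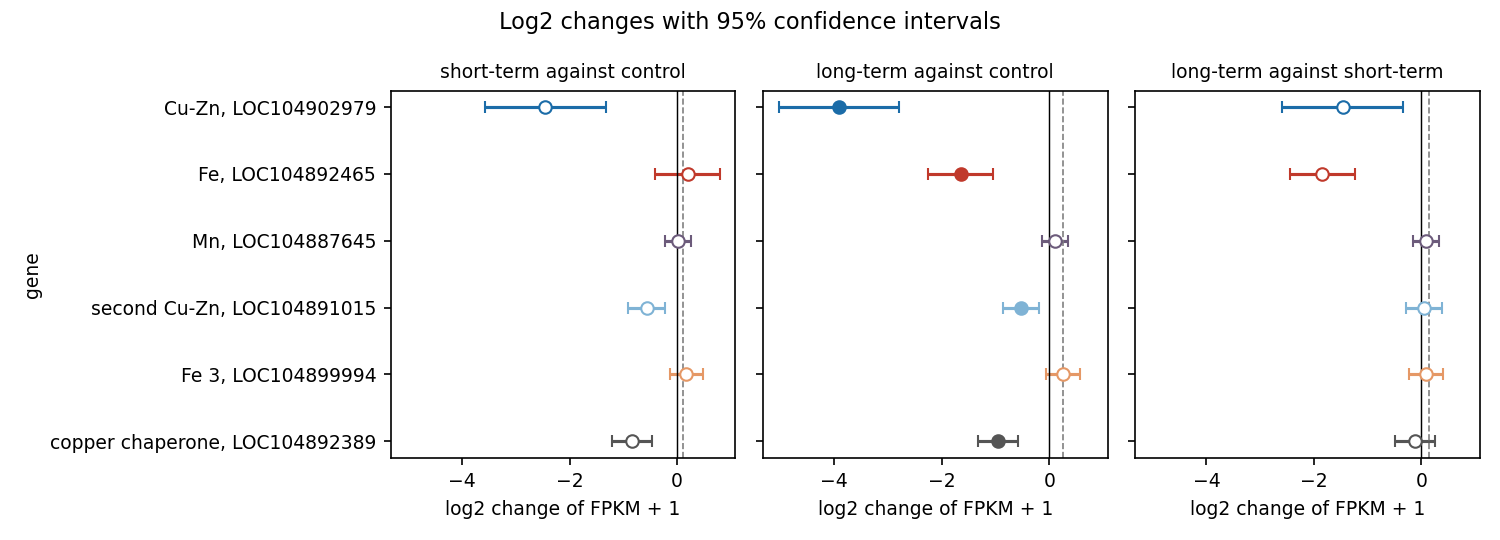
Log2 change of FPKM + 1 (horizontal axes) of the superoxide dismutase genes and their copper chaperone in the 3 comparisons, with 95% confidence intervals from limma. Filled points passed an adjusted p of 0.05 and the dashed line marks the median of all 14491 genes (0.11, 0.26 and 0.15). At day 7 the copper-zinc gene LOC104902979 lies at -3.91, the iron gene LOC104892465 at -1.65, and the manganese gene LOC104887645 at 0.10.

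Of the 5 superoxide dismutase genes, 3 were called as lower and 0 as higher in LT leaves, where 7.23% of all tested genes were called as lower and 31.1% as higher. Their median log2 change was -0.52 against 0.26 for all genes. With the same total FPKM these counts were 2 and 1. They were 2 and 0 in the fit of 2 groups, with the replicate block and without control replicate 2 or 3 or any 1 LT replicate. In the unmoderated F-test they were 0 and 0. None was called in the other comparisons. The 3 called in LT leaves were the 2 members, chosen with earlier results known, and LOC104891015. The call of LOC104891015 was lost in 9 of 21 alternatives. The count therefore cannot be set against the share of all genes as evidence about the family. The median of all genes moved to 0.02 under median-ratio scaling, and relative to the median of all genes the copper-zinc member was at -4.17 and the iron member at -1.91 at day 7. At day 3 these values were -2.56 and 0.08.

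The summed FPKM of the family was 447 ± 70.0 in control, 288 ± 19.1 in ST and 186 ± 8.18 in LT leaves (SD, n = 3), and no library of one group reached the range of another. The copper-zinc member made up 42.1 ± 10.2% of this sum in control leaves, 12.1 ± 5.50% in ST leaves and 6.79 ± 3.73% in LT leaves. The iron member made up 24.1 ± 6.89%, 41.9 ± 6.96% and 18.4 ± 6.98%. The manganese gene made up 19.1 ± 2.55%, 29.6 ± 1.18% and 48.6 ± 3.04%. The family was thus led by the copper-zinc member in control leaves, by the iron member in ST leaves and by the manganese gene in LT leaves.

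**Figure D4:**
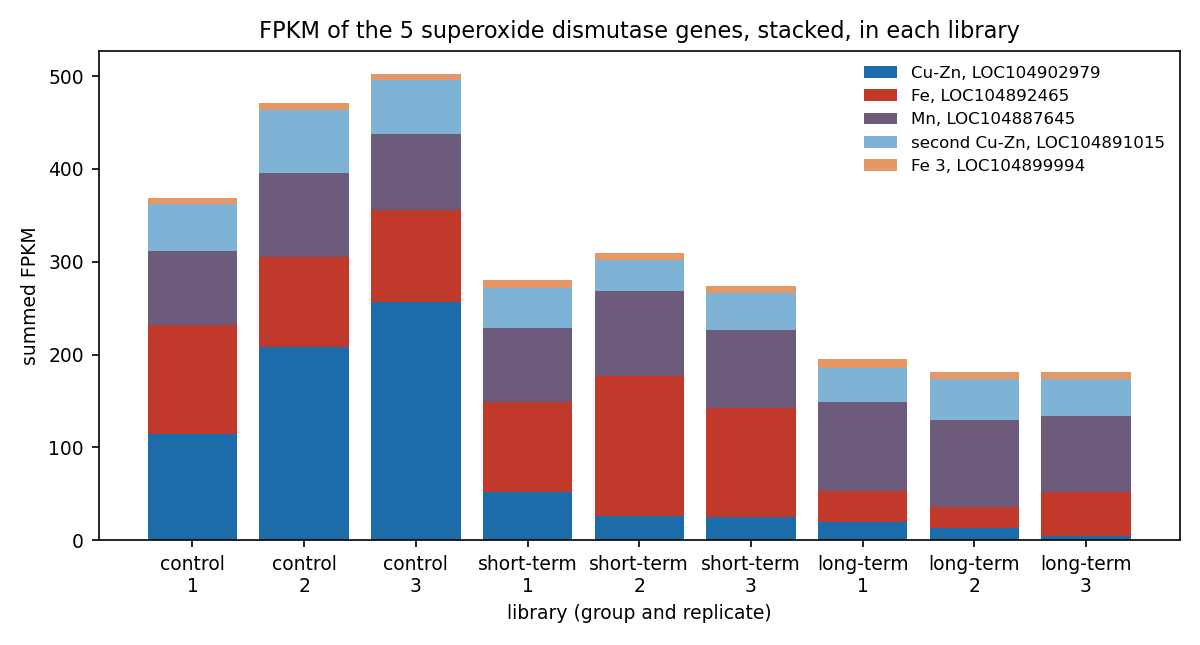
FPKM of the 5 superoxide dismutase genes stacked for each of the 9 libraries (vertical axis from 0). The sums lie between 368 and 502 FPKM in control, 274 and 310 in short-term and 181 and 196 in long-term leaves, and the dark blue part of the copper-zinc gene LOC104902979 shrinks from 31.0 to 51.1% of the sum in control leaves to 2.77 to 10.1% in long-term leaves.

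Neighbours in the order of levels were not always distinct. In control leaves the libraries of both members overlapped, while the iron member, the manganese gene and LOC104891015 were separate from each other. In ST leaves the iron member stood above the manganese gene, that above LOC104891015, and LOC104891015 overlapped with the copper-zinc member. In LT leaves the iron member overlapped with LOC104891015, and the copper-zinc member overlapped with LOC104899994, the lowest of the family in control leaves.

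The copper chaperone for superoxide dismutase, LOC104892389, moved in the same direction as the copper-zinc genes. Its FPKM was 13.6, 19.0 and 16.3 in control replicates 1, 2 and 3, 10.3, 8.21 and 7.51 in the ST libraries and 7.46, 9.30 and 7.03 in the LT libraries. All 6 alkaline libraries lay below the control libraries, where 9.9% of all tested genes had every ST library and 9.85% every LT library below control. The log2 change was -0.95 in LT leaves (SE 0.16, interval -1.32 to -0.58, limma adjusted p = 0.00633) and -0.84 in ST leaves (SE 0.16, limma adjusted p = 0.0649, and 0.0367 to 0.257 with 1 library left out, the lowest without control replicate 1 and the highest without ST replicate 3). Unlike those of both members, its LT libraries overlapped with its ST libraries.

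Among 21 listed genes for copper chaperones, copper transport and copper proteins, 14 were tested, and 4 rose and 3 fell in LT leaves, with a median log2 change of 0.44. The share that rose was near the 31.1% of all tested genes, and 7.23% of all genes fell. Plastocyanin (LOC104883872), the copper protein that carries electrons to photosystem I, had the largest fall, from 1475 ± 238 in control to 876 ± 203 in ST and 655 ± 110 FPKM in LT leaves (log2 change -1.17, SE 0.21, limma adjusted p = 0.0072). The largest rise was in a polyphenol oxidase gene (LOC104900758), a copper enzyme of phenol oxidation. Its FPKM was 68.0 ± 68.5 in control and 251 ± 84.5 in LT leaves (log2 change 2.29, SE 0.66, limma adjusted p = 0.028). Control replicate 1, at 147 FPKM, stood apart from the other control libraries at 37.2 and 20.3, and without it the log2 change was 3.08. Without control replicate 3 it was 1.68, and the call was lost without control replicate 2 or 3 or LT replicate 2 or 3 (adjusted p 0.0834, 0.0911, 0.0823 and 0.0714) and with median-ratio scaling (0.0554). PAA1 (LOC104904017), known in Arabidopsis as the pump that brings copper into plastids, was singled out after its values were seen. It rose from 7.88 ± 1.56 to 19.0 ± 2.13 FPKM (log2 change 1.18, SE 0.20, limma adjusted p = 0.0059). The other listed copper-transporting ATPases did not pass in LT leaves. PAA2 (LOC104886560) had a log2 change of 0.20 (limma adjusted p = 0.262) and the probable HMA5 (LOC104889963) of 0.41 (limma adjusted p = 0.0874). The number of copper genes called as higher was 1 with median-ratio scaling and 7 with the same total FPKM.

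SPL factors, the family of the Arabidopsis copper sensor, had 6 of 7 listed genes tested. At day 7, 3 rose and 0 fell, with a median log2 change of 0.36. The largest rise was in LOC104889158 (squamosa promoter-binding-like protein 1), from 7.05 ± 1.13 to 13.8 ± 2.39 FPKM (log2 change 0.87, SE 0.15, limma adjusted p = 0.00655). None of the listed genes was named SPL7, and 1 SPL gene was called as higher with median-ratio scaling. The share of SPL genes that rose can be read against the 31.1% of all genes.

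Another list held 8 genes taken as possible partners of the iron enzymes of plastids. It was set by product names alone, of the 20 kDa chaperonin and of proteins of the plastid nucleoid and polymerase. A link of these genes to the iron member was not tested. At day 7, 6 of the 8 fell and 0 rose, against 7.23% and 31.1% of all genes. Their median log2 change was -0.72, and all 8 had a change below 0. The number called as lower was 3 without control replicate 3 and 4 without control replicate 2 or LT replicate 2. It was 7 with median-ratio scaling, 8 with array weights and 0 in the unmoderated F-test. The largest fall was in LOC104900056 (plastid transcriptionally active 16), from 143 ± 14.5 to 63.9 ± 2.79 FPKM (log2 change -1.14, SE 0.13, limma adjusted p = 0.00236). In ST leaves, where the iron member overlapped with control, this gene was at 101 ± 12.9 FPKM (limma adjusted p = 0.0876).

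Genes for enzymes that remove hydrogen peroxide came next. Of 4 peroxiredoxin genes, 3 fell and 0 rose in LT leaves, against 7.23% and 31.1% of all genes. Their median was -0.91, and 2 fell and 1 rose with the same total FPKM. Peroxiredoxin Q (LOC104901662), a plastid enzyme, went from 151 ± 51.5 to 57.5 ± 11.0 FPKM (log2 change -1.35, SE 0.24, limma adjusted p = 0.00667), and 2-Cys peroxiredoxin BAS1 (LOC104898261), named after its values were seen, from 609 ± 129 to 250 ± 13.4 FPKM (-1.26, SE 0.18, adjusted p = 0.0043). Of 9 tested ascorbate peroxidase genes out of 11 listed, 1 fell and 0 rose, against 7.23% and 31.1% of all genes. Their median was 0.15, but -0.15 with median-ratio scaling and -0.10 without control replicate 1. The gene that fell was LOC104891011 (probable L-ascorbate peroxidase 6), which went from 70.8 ± 10.3 to 32.7 ± 4.14 FPKM (log2 change -1.09, SE 0.14, limma adjusted p = 0.00363).

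Among 4 genes that recycle ascorbate and glutathione, 1 rose and 0 fell, against 31.1% and 7.23% of all genes. A glutathione reductase gene (LOC104906832) was at 21.7 ± 3.87 FPKM in control and 41.2 ± 9.49 in LT leaves (log2 change 0.88, SE 0.19, limma adjusted p = 0.012). The single glutathione peroxidase gene tested, LOC104897014, was at 2.26 ± 0.203 and 2.72 ± 0.718 FPKM (limma adjusted p = 0.406). The single NADPH oxidase gene tested, LOC104907931 (respiratory burst oxidase homolog protein A-like), belongs to the enzymes that make superoxide outside the cell. It was at 0.527 ± 0.525 and 2.04 ± 1.28 FPKM, with a log2 change of 0.94 and an adjusted p of 0.0666. Without control replicate 1 or LT replicate 1 the adjusted p was 0.0322 and 0.00985, and over all libraries left out 1 at a time it reached 0.189, with log2 changes of 0.68 to 1.35. No product name held catalase. In the ST leaves, and between ST and LT leaves, 0 genes of these lists passed.

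**Figure D5:**
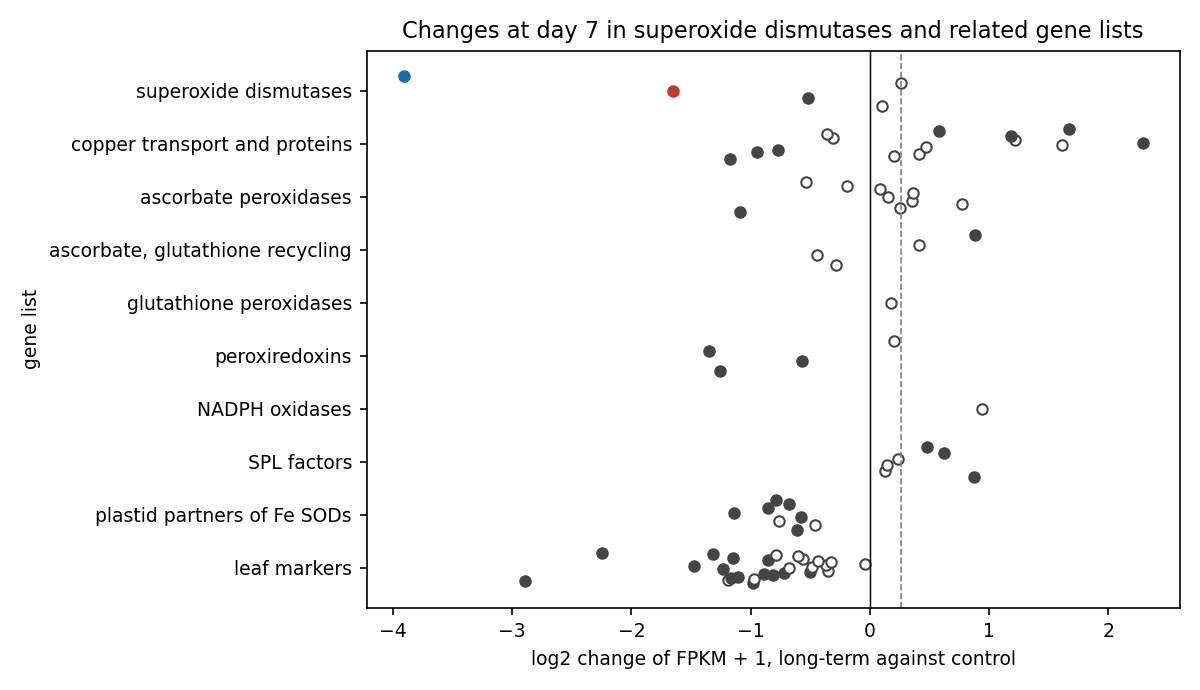
Log2 change of FPKM + 1 from control to long-term leaves (horizontal axis) for each tested gene of the superoxide dismutase family and of 9 related lists, 1 point per gene. Filled points passed a limma adjusted p of 0.05, blue is LOC104902979, red is LOC104892465, and the dashed line is the median of all genes (0.26). The blue point at -3.91 lies below every other gene shown, the lowest leaf marker being at -2.89.

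Leaf marker genes also fell in LT leaves, 14 of the 26 with 0 rising, against 7.23% and 31.1% of all genes. Their median log2 change was -0.83, with a range of -2.89 to -0.04. With median-ratio scaling 23 fell, in a fit that called 1848 genes as lower and 1447 as higher. With the same total FPKM 11 fell, and with 1 library left out 9 (without control replicate 3) to 19 (without LT replicate 1) fell. At day 7 none of the 26 had a change as low as that of the copper-zinc member, and 2 had a lower change than the iron member. At day 3 the markers had a median log2 change of -0.53, with 25 of 26 below 0 and 0 passing. All 26 were then below the iron member at 0.19, and 1, LOC104883662 at -2.53, was below the copper-zinc member at -2.45. This gene, for a chlorophyll a-b binding protein, was also the lowest marker at day 7, with 963 ± 497, 189 ± 146 and 121 ± 32.3 FPKM (log2 change -2.89, SE 0.56, limma adjusted p = 0.00873). As a share of the summed FPKM of the leaf markers, the copper-zinc member was at 0.204 to 0.357% in control, 0.0557 to 0.102% in ST and 0.0174 to 0.0442% in LT leaves, with no overlap. The share of the iron member was 0.137 to 0.211%, 0.191 to 0.319% and 0.0559 to 0.162%, so that its LT libraries overlapped with the control libraries on this scale. The part of leaf marker levels in the changes of the members was not tested.

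The genes whose pattern over the 9 libraries was most like that of the copper-zinc member were taken from 5032 other genes with a product name and a mean of at least 1 FPKM. The 5 with the highest Pearson r of log2(FPKM + 1) were LOC104894042 (geranylgeranyl diphosphate reductase, which makes the phytol tail of chlorophyll; r = 0.99), LOC104902163 (the iron-sulfur cluster assembly factor HCF101; 0.99), LOC104902402 (transcription factor bHLH67; 0.98), LOC104886961 (a Rubisco small chain; 0.98) and LOC104889776 (photosystem I subunit V; 0.98). The copper chaperone had an r of 0.92 and ranked 108th, the second copper-zinc gene 0.79 and the iron member 0.56. None of these 5 genes fell as far as the copper-zinc member: LOC104894042 went from 153 ± 14.9 to 72.0 ± 11.4 FPKM and LOC104902402 from 5.77 ± 0.601 to 1.12 ± 0.622 FPKM.

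For the iron member the 5 genes were LOC104884123 (chromophore lyase CRL; r = 0.93), LOC104884752 (a leucine-rich repeat receptor-like protein kinase named as probably inactive; 0.93), LOC104883422 (a hypothetical protein; 0.93), LOC104893126 (glucose-6-phosphate isomerase, of sugar metabolism; 0.93) and LOC104892629 (beta-carotene isomerase D27, of strigolactone synthesis; 0.92). All 5 differed less between control and ST leaves than between ST and LT leaves, with LOC104892629 at 57.6 ± 5.55, 43.1 ± 5.10 and 19.0 ± 3.87 FPKM. The likeness is a description over libraries that share 3 group means. None of the 5 genes of either member was among the 5 by Spearman rho or by deviations from the group means.

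In LT leaves 5 genes had a lower log2 change than the copper-zinc member, of which 2 had a product name; both were looked up after the values were seen. Carbonic anhydrase (LOC104902037), which converts carbon dioxide and bicarbonate into each other, was at 2549 ± 815, 544 ± 221 and 107 ± 37.8 FPKM (log2 change at day 7 -4.57, SE 0.38, limma adjusted p = 0.0011). Ferritin-3 (LOC104905965), an iron store of plastids, was at 64.6 ± 20.7, 16.8 ± 4.44 and 3.73 ± 2.89 FPKM (log2 change -3.92, SE 0.41, limma adjusted p = 0.00211).

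Long non-coding RNAs (lncRNAs) near the members were at low levels. Within 100 kb, 3 lay near the copper-zinc member and 2 near the iron member, the nearest, LNC_002587, 635 bases from the iron gene. None had a group mean over 0.5 FPKM, and the highest single values were 0.499 and 0.624 FPKM, so no change could be tested. LNC_000817, 83868 bases from the manganese gene, was the only tested lncRNA near any of the 5 genes. Its FPKM was 30.8, 54.9 and 151 in control, 124, 41.4 and 165 in ST and 169, 101 and 174 in LT replicates 1, 2 and 3. The groups overlapped, and the log2 change at day 7 was 1.16 (SE 0.62, interval -0.23 to 2.56, limma adjusted p = 0.271 over 1914 lncRNAs). Of these lncRNAs, 3.61% were called as higher and 3.92% as lower at day 7.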

How the data were processed

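RNA of 9 leaf libraries, 3 per group, was depleted of ribosomal RNA and made into strand-specific libraries. The authors used HISAT2 for alignment and StringTie for assembly (version 1.3.1 in the submitters' processing notes) and deposited FPKM for 43133 transcripts. Their methods name Cuffdiff for FPKM. Which program made the values was not tested, and the depth estimate assumes that FPKM rests on aligned bases. The build was not given in the sources used here. FPKM was summed over the 33306 protein-coding transcripts of 24351 genes, including 572 entries with a repeated identifier. A product name was given for 6515 genes, and gene lists rest on these names alone. Genes with a group mean over 0.5 FPKM were tested with limma 3.58.1 in R 4.3.3 on log2(FPKM + 1), which understates changes of low genes, over all 9 libraries with a variance trend, and p-values were adjusted by Benjamini-Hochberg. The same fit served transcripts and lncRNAs. Other steps used Python 3.11.15, numpy 2.4.6 and pandas 2.3.3.

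The members and the gene lists were chosen with earlier results of these data known. Named were the members, all other superoxide dismutase genes, of each list the largest called rise and fall at day 7 (with none, the highest mean), and the 5 genes most like each member. On simulated data for LT against control, over 14491 genes, 70 of 100 changes of log2 1 and 89 of 100 of log2 2 were called, with 6 false calls. The simulation drew independent normal noise for each gene and planted changes only in genes of higher level. In the data far more genes were called and libraries deviated jointly over genes, so these rates need not hold for the real comparison. Depth was estimated from steps of FPKM times length, of which 95.1 to 97.5% were whole within 0.05 in each library; this was chosen after seeing the data. Promoter and protein sequences and physiological measurements were not analysed here.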

Additional observations from a re-analysis of the deposited data

How the results depend on the processing

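With 3 libraries per group, calls near the threshold turned on single libraries or settings, and the cause was not tested. Alternatives covered pseudocounts of 0.1 and 0.01, no filter or a group mean over 1, median-ratio scaling, the same total FPKM, fits of 2 groups, no trend, array weights, an unmoderated F-test, a replicate block, leaving out each library and, added after seeing the data, leaving out repeated transcript identifiers. The falls of both members at day 7 kept their direction in all 21 alternatives. They missed the threshold only in the unmoderated F-test, which calls 0 genes in this comparison (LOC104902979 -3.91, adjusted p = 0.0653; LOC104892465 -1.65, 0.0693). Leaving out 1 library gave -4.30 to -3.40 for LOC104902979 and -1.90 to -1.37 for LOC104892465.

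At day 3, LOC104902979 passed with array weights (-2.49, limma adjusted p = 0.0105) and ranged from -2.79 to -2.20 without 1 library, with adjusted p of 0.0369 to 0.257. LOC104892465 ranged from 0.03 to 0.34. From day 3 to day 7, array weights gave -1.39 (0.0322) for LOC104902979 and -2.08 (0.00726) for LOC104892465, and the same total FPKM gave -1.67 (0.0408) for LOC104892465. Without 1 library these changes ranged from -1.85 to -0.95 and from -2.10 to -1.56.

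Of all genes, 15 passed at day 3, against 9 with no filter, 43 with 2 groups, 2194 with array weights, 0 in the F-test (2990 at an unadjusted p under 0.05) and 0 to 522 without 1 library (522 without control replicate 1 and 153 without LT replicate 3), each of the 9 moving the count by over 1.5 times. At day 7, 5552 passed, against 3295 with median-ratio scaling (1447 higher and 1848 lower, against 4505 and 1047), 3290 with 2 groups, 0 in the F-test (5441 at an unadjusted p under 0.05) and 2323 to 5782 without 1 library, with 3005, 2323 and 2420 without control replicate 2, control replicate 3 and LT replicate 2. Between ST and LT leaves 0 passed, against 1852 with the same total FPKM, 4 with 2 groups, 2 with no trend, 3790 with array weights and 0 to 1270 without 1 library (1270 without LT replicate 1, 310 without control replicate 1, 142 without LT replicate 3 and 1 without ST replicate 2).

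Same-numbered libraries did not deviate together: r over genes was -0.61 to 0.35 and over 0.1 in 2 of 9 pairs, so the numbers were not taken as pairs. With the replicate block 1 gene passed at day 3, 3246 at day 7 and 3 between ST and LT leaves. LOC104902979 then had an adjusted p of 0.0196 and LOC104892465 of 0.0243 at day 7. The ratio of the members had no alternative by transcript, since each has 1 transcript.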
